A study of Mus musculus with 2 samples.

Results

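The genes described here are 10 named components of the machinery that takes up shed photoreceptor outer segments, followed gene by gene across the retinal pigment epithelium (RPE) and the macrophages of mouse eyes. They were chosen by name and from their known roles, though with earlier results of these data known. They are the receptor tyrosine kinases Mertk, Tyro3 and Axl, the bridging ligands Gas6 and Mfge8, and the integrin subunits Itgav and Itgb5. The others are the scavenger receptor Cd36, the motor protein gene Myo7a and the kinase gene Ptk2. All 10 had a row of their own among the 27998 gene rows of each matrix.

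The RPE is a single layer of pigmented cells behind the photoreceptors that takes up the tips of their outer segments each day. Shed tips expose phosphatidylserine, to which the ligands Gas6 and Mfge8 bind. Mfge8 is the ligand of the integrin alpha-v beta-5, which binds the particle and passes a signal through focal adhesion kinase, and Gas6 is a ligand of Mertk, which drives engulfment. Macrophages use much of the same machinery to clear dying cells.

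The cells were taken from RPE and choroid, the mice were C57BL/6J, and the labels give no age. In the treated group sodium iodate (NaIO3), an oxidant toxic to the RPE, was given into a vein at 20 mg/kg, and in the control group phosphate-buffered saline (PBS) was given at the same volume. The treatment lasted 7 days, the eyes of 6 mice were pooled in each group, and each pool gave 1 droplet library. There are thus no replicates, nothing measures the spread between animals, and no test was possible. The brown hexagonal cells were picked by hand after the neural retina had been removed, so the macrophages studied are those that stayed with this preparation.

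The PBS library held 4618 barcodes and the NaIO3 library 4058, with 51055592 and 51168520 unique molecular identifiers (UMIs, counted RNA molecules) and medians of 10024.5 and 9792.5 UMIs per barcode. Of the barcodes, 24 occurred in both libraries. After filtering, 34 clusters were formed on genes other than the 10, and clusters were named from marker genes. RPE-like cells numbered 3407 in PBS and 2169 in NaIO3, and macrophage-like cells 104 and 476. In the RPE-like cells 9 of 11 RPE markers were abundant in both libraries, while Best1 and Slc16a3 stayed under 1 CPM (counts per 1000000). All 12 macrophage markers were detected in the macrophage-like cells of both libraries, though Mrc1 was at 175 CPM in PBS and 5.22 CPM in NaIO3. With the exception of 2 cells, the RPE-like clusters of the libraries were separate. The macrophages differed in make-up as well: 81 of the 104 PBS cells were in cluster 13, which also held 19 NaIO3 cells, while cluster 6, led by Spp1, held 18 PBS and 294 NaIO3 cells and cluster 8, led by Lyz2, held 5 and 163. Cluster 13 had all 12 macrophage markers at 2-fold or more, but its first 4 genes were the MHC class II genes Cd74, H2-Aa, H2-Eb1 and H2-Ab1, which also led the dendritic-like cluster 15. Macrophage-like cells had medians of 4161.5 (PBS) and 11597.5 (NaIO3) UMIs per cell. Mitochondrial genes took up 8.34% of the UMIs of the median RPE-like cell in PBS and 11.9% in NaIO3.

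Levels below are CPM of the UMIs summed over a group of cells, with an exact Poisson 95% interval. Ratios carry an exact conditional binomial 95% interval. Both cover counting error only. A difference whose interval leaves out 1 is therefore larger than counting error between these libraries, and nothing more is implied about the treatment.

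In RPE-like cells 8 of the 10 genes had a higher level in the NaIO3 library and 2, Mertk and Itgav, a lower one. Of the 14049 genes measured in these cells 64.4% were higher in NaIO3. The median log2 ratio of the 10 genes was 0.96, against 0.17 for all genes. A level at least 2-fold higher in NaIO3 was found for 5 of the 10 (Tyro3, Axl, Gas6, Mfge8 and Cd36), a rule that 11.6% of all genes met. None of the 10 was at least 2-fold lower, which 2.68% of all genes were. The interval of the ratio lay above 1 for all 8 of the higher genes and for 44.1% of all genes, and below 1 for the 2 lower genes and for 19.0% of all genes. Axl, Cd36 and Mfge8 were at under 10% of their level in another group of the same library, the cut used here for RNA free in the droplets. The estimated free RNA was 113.7% (PBS) and 76.8% (NaIO3) of the RPE level for Axl and 170.5% and 88.5% for Cd36. For Mfge8 it was lower, at 39.3% and 49.0%. Without these 3 genes the median of the other 7 was 0.60. The log2 ratios of the remaining pair of 2-fold calls fell short of 1 in cells below 10% mitochondrial counts, at 0.93 for Tyro3 and 0.96 for Gas6, and that of Tyro3 also with TMM scaling, at 0.98. In the same cells below 10%, a share that moved with the groups, the median of the 10 genes was 0.70. At this limit 2375 PBS and 638 NaIO3 cells were RPE-like, against 3407 and 2169 without it.

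**Figure D1:**
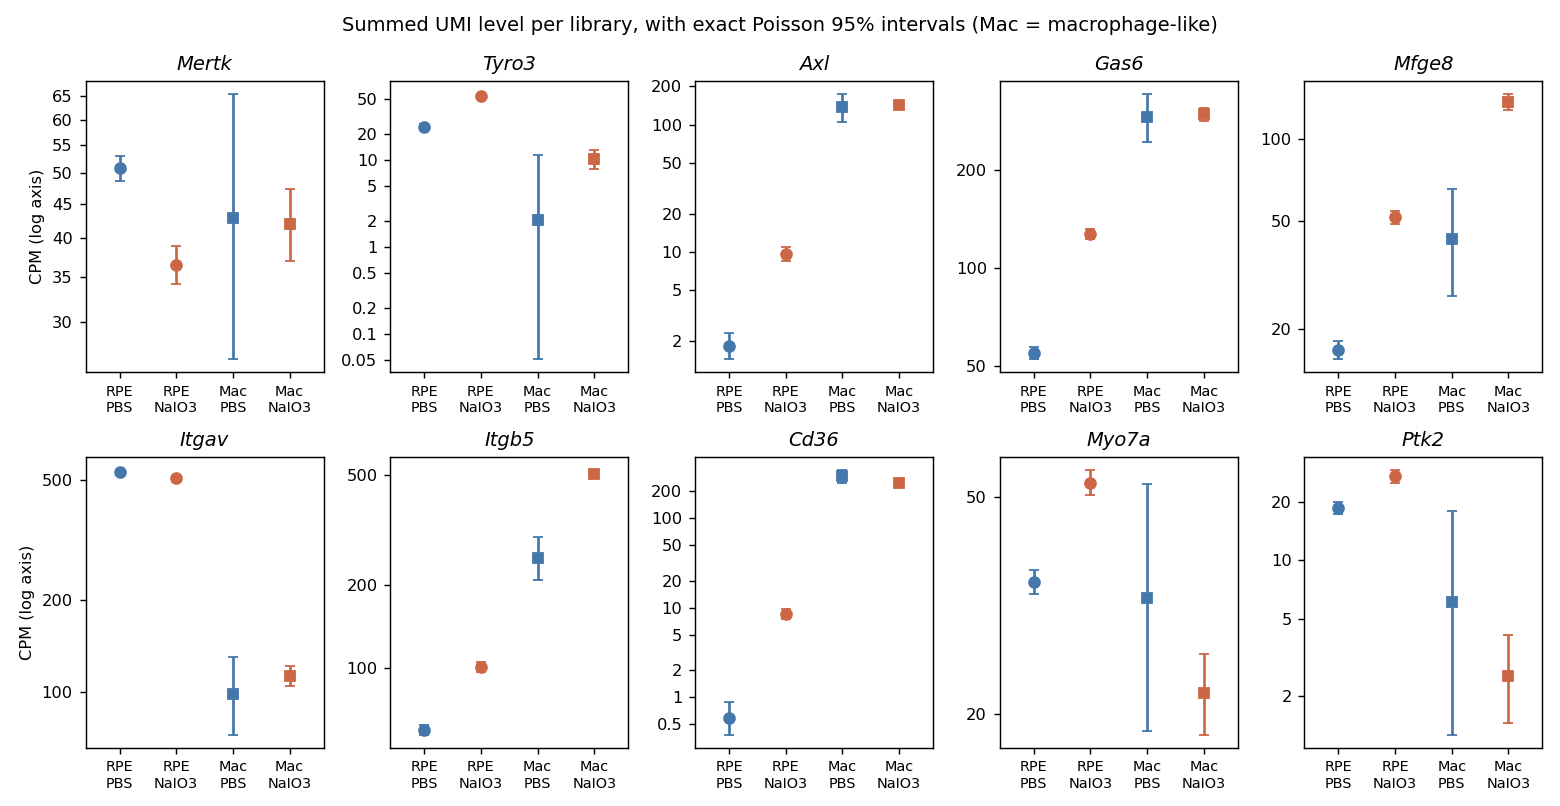
Level of each of the 10 genes in RPE-like (circles) and macrophage-like (squares, Mac) cells of the PBS (blue) and NaIO3 (orange) libraries, in CPM on log axes whose range differs between panels. Points are 1 library each and bars are exact Poisson 95% intervals. The RPE levels of Axl, 1.83 and 9.66 CPM, and of Cd36, 0.594 and 8.49 CPM, lie far under the macrophage levels, while the Mertk levels of both cell types lie close together.

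**Figure D2:**
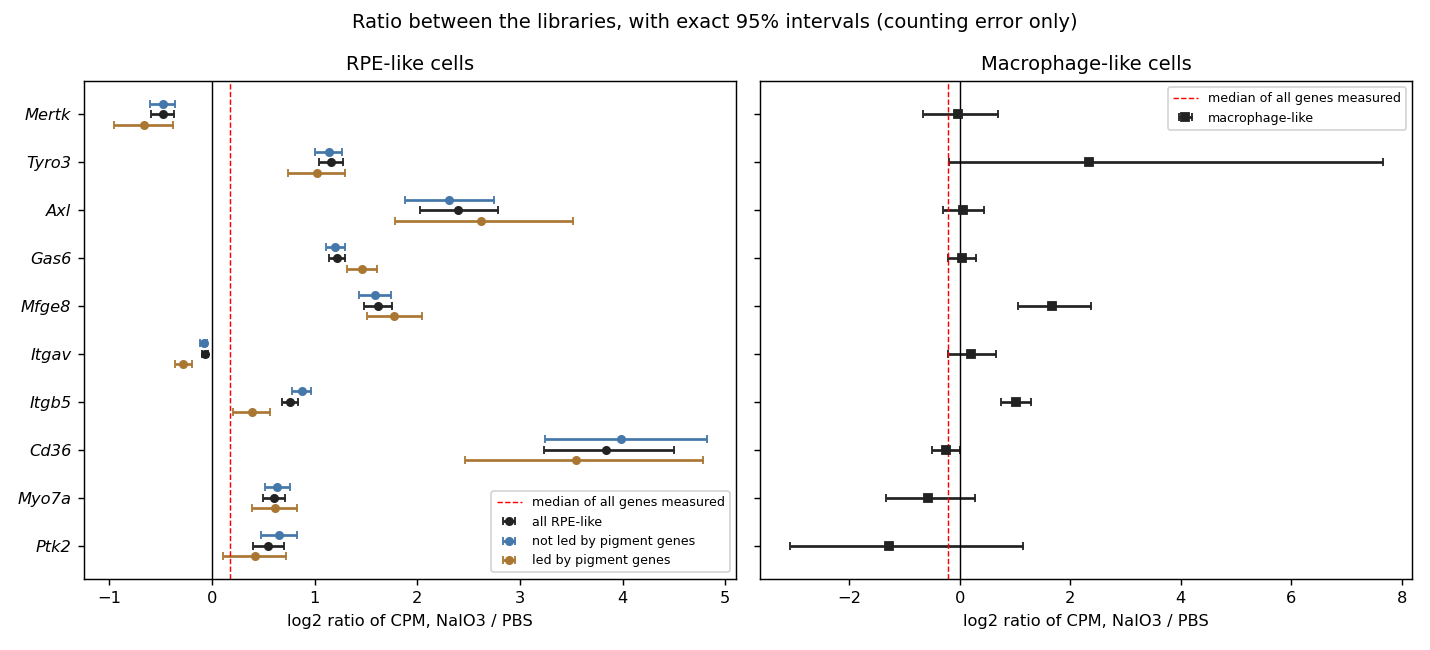
Log2 ratio of NaIO3 to PBS for each gene in RPE-like cells (left: all, and apart for clusters led or not led by pigment genes) and in macrophage-like cells (right). Bars are exact 95% intervals for counting error, and the red dashed line is the median of all genes measured. In RPE-like cells Mertk and Itgav are left of 0 and the other 8 genes right of it, whereas in macrophage-like cells the bars of Mfge8 and Itgb5 alone leave out 0.

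Mertk, the receptor whose loss stops outer segment engulfment, was at 50.8 CPM (48.7 to 53.0) in PBS RPE-like cells and 36.5 CPM (34.2 to 39.0) in NaIO3. The ratio was 0.719 (0.665 to 0.777). It was the only one of the 3 receptor kinases that was lower in NaIO3. In the macrophage-like cells the level was 42.8 CPM (26.5 to 65.4, from 21 UMIs) in PBS and 41.9 CPM (37.0 to 47.3) in NaIO3, with a ratio of 0.980 (0.628 to 1.61). Macrophage and RPE levels differed by less than counting error in both libraries, with macrophage to RPE ratios of 0.842 (0.520 to 1.29) in PBS and 1.15 (0.998 to 1.32) in NaIO3. RPE-like cells, the most numerous, held 94.9% of the library's Mertk UMIs in PBS and 66.7% in NaIO3, where macrophage-like cells held 18.9%.

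The share of RPE-like cells with a Mertk UMI was 43.6% in PBS and 31.7% in NaIO3. With each cell thinned to 4000 UMIs the shares were 18.2% and 14.3%. In thinned surface epithelium-like cells, which are not known for Mertk and had median depths of 12951 and 9082.5 UMIs against 11301 and 9302 in RPE-like cells, they were 1.61% and 1.02%. Only 62 such cells were thinned in PBS, and the interval of their share was 0.0408% to 8.66%. The thinned PBS shares of this group given below for other genes rest on the same 62 cells. The RPE signal of Mertk is thus above the background of free RNA in both libraries. After subtraction of an estimated free RNA share the RPE level was 38.7 CPM in PBS and 31.0 CPM in NaIO3. The macrophage level in PBS after subtraction depended on the markers used for the estimate, with 8.20 CPM from rod and surface epithelium markers and 38.7 CPM from the latter alone. An antisense gene, Gm14011, overlaps Mertk, and the strand setting of the counting is not given in the sources used here, so reads of the pair may not have been told apart.

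Tyro3, the second receptor of the family, moved the other way in the RPE. Its level was 24.3 CPM (22.8 to 25.8) in PBS and 54.2 CPM (51.4 to 57.1) in NaIO3, a ratio of 2.23 (2.06 to 2.42). The thinned share of RPE-like cells with a UMI was 9.36% in PBS and 19.3% in NaIO3, and that of surface epithelium-like cells was 4.84% and 13.5%. Tyro3 was low in macrophage-like cells, with 1 UMI in PBS (2.04 CPM) and 65 in NaIO3 (10.3 CPM), and the ratio of 5.05 had an interval from 0.874 to 202. Macrophages held less Tyro3 than the RPE in both libraries, at 8.39% of the RPE level in PBS and 19.0% in NaIO3. RPE marker genes stood at a median of 15.2% and 10.5% of their RPE level in the same macrophages. In PBS the Schwann-like cells had the highest level of any group, 87.6 CPM, and in NaIO3 the RPE-like cells did.

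Mertk and Tyro3 lie on the same chromosome and differed in direction in the same cells. The sequences before a RefSeq start of each are therefore shown together. Both are the 250 bases before the RefSeq transcription start (GRCm38.p6), Mertk at chr2:128698665-128698914 and Tyro3 at chr2:119799264-119799513, both on the plus strand and printed 5′ to 3′. The Tyro3 window lies inside the span of the gene's annotation, which begins at 119797733. Which start was used in these cells is not shown by the data. Capitals mark CCGCCC or its reverse complement GGGCGG, the core of the GC box. The motif occurred 3 times in each, and 32.7% of the 32851 windows of this length hold it at least once on either strand.
Mertk: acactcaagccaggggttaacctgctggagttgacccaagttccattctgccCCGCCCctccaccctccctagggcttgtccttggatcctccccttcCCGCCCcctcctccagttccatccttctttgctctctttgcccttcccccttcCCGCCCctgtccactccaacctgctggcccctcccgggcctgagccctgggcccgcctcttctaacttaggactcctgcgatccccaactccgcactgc
Tyro3: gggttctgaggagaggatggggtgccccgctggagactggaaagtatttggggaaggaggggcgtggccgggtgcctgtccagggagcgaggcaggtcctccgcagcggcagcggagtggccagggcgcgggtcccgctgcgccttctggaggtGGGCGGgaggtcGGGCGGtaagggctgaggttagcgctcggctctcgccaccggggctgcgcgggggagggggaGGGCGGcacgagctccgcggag
The windows were 63.6% and 73.2% G and C, above the median of 52.4% over all windows. Of the 9 genes with a window, Itgav alone had no GC box in its first window. CACGTG, the E-box that many basic helix-loop-helix factors bind, was in none of the windows and in 6.02% of all windows.

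Axl, the receptor of the family best known from macrophages and other phagocytes, was at 1.83 CPM (1.44 to 2.29, from 77 UMIs) in PBS RPE-like cells and 9.66 CPM (8.49 to 10.9, from 247 UMIs) in NaIO3. The ratio was 5.28 (4.07 to 6.91). In macrophage-like cells it was 136.5 CPM (105.8 to 173) in PBS and 142.7 CPM (133.5 to 152) in NaIO3, which differed by less than counting error (ratio 1.05, 0.815 to 1.36). The RPE level was 1.34% of the macrophage level in PBS and 6.77% in NaIO3. Macrophage markers stood lower in the same RPE-like cells, at a median of 0.190% and 3.18% of their macrophage level. Of the thinned RPE-like cells 0.790% and 3.50% had an Axl UMI, at or below the 6.45% and 5.09% of surface epithelium-like cells. Subtraction of the estimated free RNA left 0 CPM in PBS and 2.24 CPM in NaIO3. The RPE signal of Axl is thus in the range that free RNA can give, and its source was not tested. In PBS the fibroblast-like cells, at 132 CPM, held 50.3% of the library's Axl UMIs, and in NaIO3 the macrophage-like cells held 48.1%.

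Gas6, the ligand that bridges phosphatidylserine to all 3 receptors, was at 54.9 CPM (52.6 to 57.1) in PBS RPE-like cells and 127 CPM (123 to 132) in NaIO3. The ratio was 2.32 (2.20 to 2.45). The thinned share of RPE-like cells with a UMI was 20.2% in PBS and 41.0% in NaIO3, against 19.4% and 29.4% in surface epithelium-like cells. In PBS the RPE share is thus within the interval of the share of these cells (10.4% to 31.4%). The RPE level in CPM was higher than their 40.3 CPM (28.4 to 55.6), with intervals that overlap. Macrophage-like cells had 291 CPM (246 to 343) in PBS and 298 CPM (285 to 312) in NaIO3, a ratio of 1.02 (0.863 to 1.22). The macrophage to RPE ratio was 5.31 (4.46 to 6.29) in PBS and 2.34 (2.21 to 2.48) in NaIO3. Tmem255b overlaps Gas6 on the opposite strand, with the same limit on telling the pair apart.

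Other cells had the highest Gas6 levels. In PBS the intervals of fibroblast-like (389 CPM), mural-like (336 CPM), endothelial-like (321 CPM) and macrophage-like cells overlapped from each to the next. In NaIO3 the order was cluster 9 at 835 CPM, fibroblast-like cells at 706 CPM, cluster 14 at 404 CPM and macrophage-like cells at 298 CPM, with no overlap between neighbours. Clusters 9 (159 cells) and 14 (89 cells) are NaIO3 clusters that the markers did not name, the first led by genes such as Fbln2 and Cthrc1 and the second by Tagln, Cdkn2b and Cdkn2a. RPE-like cells held 68.7% of the library's Gas6 UMIs in PBS and 31.0% in NaIO3, where cluster 9 held 28.8%.

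Mfge8, the ligand of the integrin, was at 16.8 CPM (15.6 to 18.1) in PBS RPE-like cells and 51.5 CPM (48.7 to 54.3) in NaIO3, with a ratio of 3.06 (2.79 to 3.36). Mfge8 and Itgb5 were the genes whose interval lay above 1 in both cell types. In macrophage-like cells it was at 42.8 CPM (26.5 to 65.4, from 21 UMIs) and 136 CPM (127 to 146), a ratio of 3.18 (2.07 to 5.16). The thinned share of RPE-like cells with a UMI, 6.87% and 19.1%, was below that of surface epithelium-like cells, 14.5% and 23.1%. The RPE level was 5.65% and 6.97% of that of the highest group in each library, and subtraction of the estimated free RNA left 10.2 CPM in PBS and 26.3 CPM in NaIO3. Those groups were the mural-like cells in PBS, at 298 CPM, and cluster 14 in NaIO3, at 738 CPM. Cluster 14 also held 29.8% of the library's Mfge8 UMIs, more than the 20.7% in RPE-like cells.

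Itgav encodes the alpha-v subunit and was the gene of the 10 that differed least between the libraries in RPE-like cells. It was at 532.5 CPM (526 to 539.5) in PBS RPE-like cells and 508 CPM (499 to 517) in NaIO3, with a ratio of 0.954 (0.934 to 0.975). A UMI of Itgav was found in 97.4% and 96.9% of the RPE-like cells. RPE-like cells had the highest level of all groups in both libraries. Macrophage-like cells were at 97.8 CPM (72.1 to 130) in PBS and 113 CPM (105 to 121) in NaIO3, or 18.4% and 22.2% of the RPE level. The RPE marker genes were at a median of 15.2% and 10.5% in the same macrophages.

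Itgb5 encodes the beta-5 subunit that pairs with alpha-v. Its RPE level was 59.5 CPM (57.2 to 61.9) in PBS and 100.6 CPM (96.8 to 105) in NaIO3, with a ratio of 1.69 (1.60 to 1.79). The subunits of this integrin thus differed between the libraries by unlike amounts in the RPE. In macrophage-like cells Itgb5 was at 251 CPM (208 to 299) in PBS and 505 CPM (488 to 523) in NaIO3, a ratio of 2.02 (1.68 to 2.43), and no other group was as high in either library. The macrophage to RPE ratio was 4.21 (3.49 to 5.05) in PBS and 5.02 (4.77 to 5.29) in NaIO3, the opposite of Itgav, for which it was 0.184 (0.135 to 0.244) and 0.222 (0.206 to 0.239). Itgb5 UMIs were found in 20.8% and 36.3% of thinned RPE-like cells, against 6.45% and 18.5% of surface epithelium-like cells. Macrophage-like cells held 4.13% of the library's Itgb5 UMIs in PBS and 45.0% in NaIO3.

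Cd36, a scavenger receptor for oxidised lipids, had 25 UMIs in PBS RPE-like cells (0.594 CPM, 0.385 to 0.877) and 217 in NaIO3 (8.49 CPM, 7.40 to 9.69). The ratio of 14.3 (9.42 to 22.6) was the highest of the 10. In macrophage-like cells Cd36 was at 291 CPM (246 to 343) in PBS and 244 CPM (232 to 257) in NaIO3, with a ratio of 0.838 (0.705 to 1.001). The RPE level was 0.204% of the macrophage level in PBS and 3.48% in NaIO3. The 12 macrophage markers stood at a median of 0.190% of their macrophage level in PBS RPE-like cells (0.125% for Ms4a7 to 17.2% for Csf1r) and 3.18% in NaIO3 (2.05% for Ms4a7 to 48.6% for Csf1r), and none was at 0. Their summed level in RPE-like cells was 213.5 CPM in PBS and 1691 CPM in NaIO3. Cd36 in the RPE was therefore at the level of the macrophage markers in both libraries, and subtraction of the estimated free RNA left 0 CPM in PBS and 0.979 CPM in NaIO3.

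**Figure D3:**
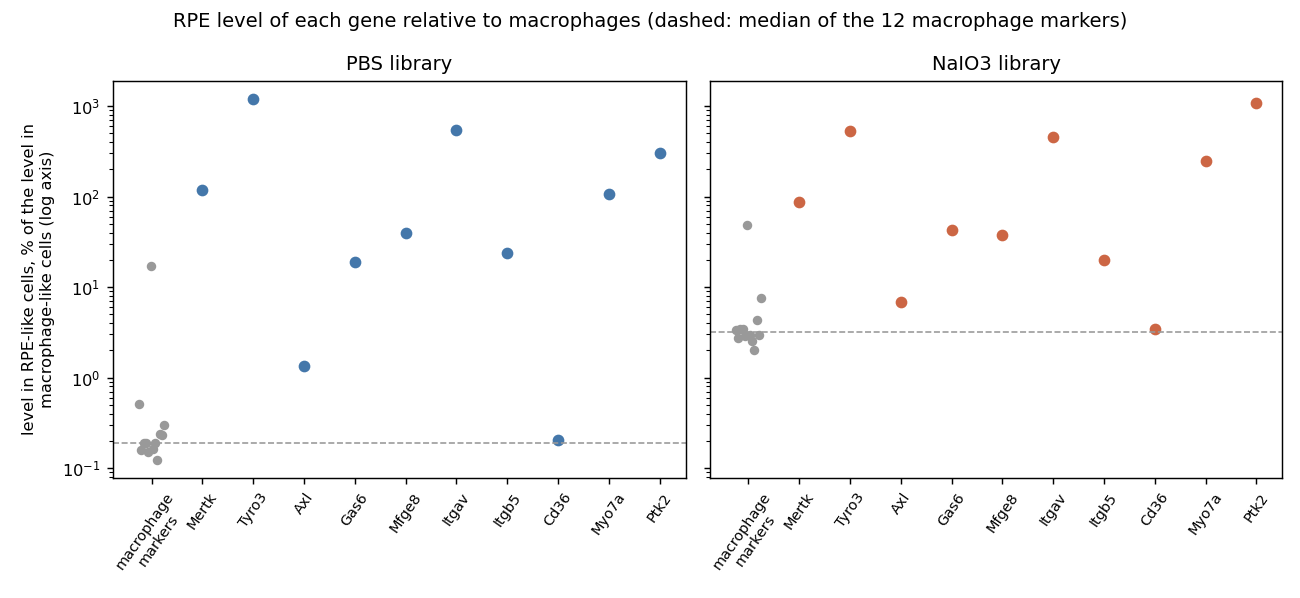
Level in RPE-like cells as a percentage of the level in macrophage-like cells of the same library (log axis), for the 12 macrophage markers (grey) and the 10 genes (coloured). The dashed line is the median of the markers, 0.190% in PBS and 3.18% in NaIO3. Cd36 lies at that line in both panels, Axl above it, and the other 8 genes much higher.

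The promoter window of Cd36 had the lowest share of G and C among those of the 9 genes, 43.2%, and is shown as the contrast to Mertk and Tyro3. It is the 250 bases before the RefSeq start at chr5:17835897-17836146 on the minus strand (GRCm38.p6), with both GC boxes in capitals.
Cd36: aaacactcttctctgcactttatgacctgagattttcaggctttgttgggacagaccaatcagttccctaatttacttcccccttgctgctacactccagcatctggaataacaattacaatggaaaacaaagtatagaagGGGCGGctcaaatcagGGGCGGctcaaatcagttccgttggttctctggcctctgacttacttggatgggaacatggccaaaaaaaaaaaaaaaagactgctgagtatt
This window lies before 1 start that RefSeq lists, inside the span of the gene's annotation, and the data do not show which start was used in these cells.

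Myo7a encodes myosin VIIa, the motor that moves melanosomes and phagosomes in RPE cells and is altered in Usher syndrome. Its RPE level was 35.0 CPM (33.2 to 36.8) in PBS and 53.2 CPM (50.4 to 56.1) in NaIO3, with a ratio of 1.52 (1.41 to 1.64). Macrophage-like cells had 32.6 CPM (18.6 to 53.0, from 16 UMIs) and 21.8 CPM (18.3 to 25.8), which differed by less than counting error, with a ratio of 0.670 (0.398 to 1.20). In PBS the macrophage level was within counting error of the RPE level (ratio 0.931, 0.531 to 1.52), and in NaIO3 it was lower (0.410, 0.342 to 0.489). After subtraction of free RNA the PBS macrophage level of Myo7a was 8.44 CPM from rod and surface epithelium markers and 29.7 CPM from the latter alone. The thinned share of cells with a Myo7a UMI was 13.6% and 20.8% in RPE-like cells, above the 3.23% and 4.80% of surface epithelium-like cells.

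Ptk2 encodes focal adhesion kinase, which carries the signal from the integrin to Mertk. It was at 18.6 CPM (17.3 to 19.9) in PBS RPE-like cells and 27.2 CPM (25.2 to 29.3) in NaIO3, a ratio of 1.46 (1.32 to 1.62). A Ptk2 UMI was found in 19.7% and 26.6% of RPE-like cells, against 4.55% and 7.27% of surface epithelium-like cells. Macrophage-like cells had 3 UMIs (6.11 CPM) in PBS and 16 UMIs (2.53 CPM) in NaIO3, with a ratio of 0.414 (0.119 to 2.22). At 9.31% of the RPE level in NaIO3 the macrophage signal of Ptk2 was at that of the RPE markers found there, a median of 10.5%. RPE-like cells had the highest Ptk2 level in NaIO3, and in PBS the Schwann-like cells did, at 47.8 CPM.

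Set side by side, 5 genes were higher in macrophage-like than in RPE-like cells in PBS with an interval that leaves out 1 (Axl, Gas6, Mfge8, Itgb5 and Cd36), and 3 were lower (Tyro3, Itgav and Ptk2). Of all 13111 genes compared there 19.3% were higher by this rule and 17.3% lower. In NaIO3 the same 5 genes were higher, and 4 were lower, the same 3 and Myo7a. Of 13334 genes 25.4% were higher and 48.6% lower. For Axl the macrophage to RPE ratio was 74.6 (53.0 to 104.9) in PBS and 14.8 (12.8 to 17.1) in NaIO3, and for Cd36 490.5 (319 to 783) and 28.8 (24.9 to 33.3). The RPE levels of both genes are in the range that free RNA can give, as described above. The RPE side of these ratios may thus be background.

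Between the macrophage-like cells of the libraries 3 of the 9 genes with enough counts were at least 2-fold higher in NaIO3 (Tyro3, Mfge8 and Itgb5), against 9.21% of the 10407 genes measured, and the interval of Tyro3 included 1. The interval lay above 1 for Mfge8 and Itgb5, against 6.79% of all genes, and below 1 for none of the 9, against 16.0%. None of the 9 was at least 2-fold lower, which 14.2% of genes were; Ptk2, with 19 UMIs in all, was not counted. The median log2 ratio of the 9 genes was 0.05, against -0.22 for all genes. These ratios join cells of different clusters. In cluster 13, the macrophage cluster with the most cells in its smaller library (81 and 19), the ratio was 1.13 for Itgb5 (0.674 to 1.84) and 2.93 for Mfge8 (0.905 to 9.26), and no interval left out 1 for the 5 of the 10 genes with at least 20 UMIs, or for the other genes with a UMI; of the 2968 genes with at least 20 UMIs 6.17% lay above and 5.29% below. The Itgb5 difference was thus not detectable within this cluster at this depth. In cluster 6 Itgb5 was at 585.5 CPM (436 to 770, from 51 UMIs) in the 18 PBS cells and 545 CPM in the NaIO3 cells, intervals that overlap. Cd36 in this cluster was at 0 CPM (0 to 42.4) in PBS and 214 CPM (200 to 229) in NaIO3. Gas6 was at 115 CPM (55.1 to 211) and 336 CPM (318 to 354). The intervals of these genes do not overlap between the libraries, while those of all the others do. Among the NaIO3 macrophages the Lyz2-led cluster 8 had 235 CPM of Mfge8 and the Spp1-led cluster 6 had 84.0 CPM, compared with 21.2 CPM in PBS cluster 13. Itgb5 was at 449 CPM in cluster 8, 545 CPM in cluster 6 and 180 CPM in PBS cluster 13. Axl was at 201 CPM in cluster 8, 111.5 CPM in cluster 6 and 148 CPM in PBS cluster 13, while Mertk was at 43.2, 41.6 and 42.3 CPM. In the NaIO3 cells of cluster 13, Mertk was at 26.6 CPM, from 3 UMIs.

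Of the 104 PBS macrophage-like cells 40 had under 4000 UMIs. Rod markers stood there at 128% of their mean level over the library, while fibroblast markers stood at 15.1%, RPE markers at 13.9% and surface epithelium markers at 8.68%. From rod and surface epithelium markers together the free RNA of a gene was estimated there as 73.0% of its mean level over the library. That was more than the whole measured level of Tyro3, Itgav and Ptk2, and than the 13.9% of the RPE markers. The estimate was thus too high for these genes. The estimate was 16.1% in NaIO3 macrophage-like cells, 25.6% in PBS RPE-like cells and 19.2% in NaIO3 RPE-like cells. After its subtraction the median log2 ratio of the genes in macrophages was 0.60 with Tyro3 and Itgav, left at 0 CPM in PBS, entered by a pseudocount, and 0.22 over the 7 genes with a value. Single log2 ratios moved with this subtraction, for Mertk from -0.03 to 1.55, Cd36 from -0.26 to -0.91, Axl from 0.06 to -0.57, Gas6 from 0.03 to -0.50 and Itgb5 from 1.01 to 0.60. With rod markers left out of the estimate, an alternative added after the data were seen, they were 0.06 for Mertk, -0.20 for Cd36, 0.10 for Axl, -0.0047 for Gas6 and 1.07 for Itgb5. The ratios after subtraction are on another scale than the subtracted levels, from which they differ by a shift that the genes share. After the first subtraction Axl was at 130.6 CPM in PBS and 136.5 CPM in NaIO3, and Cd36 at 288.5 and 237.8 CPM. Free RNA was estimated at 4.34% and 4.36% of the Axl level, so the move of its ratio to -0.57 is mostly due to the scale.

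Within the RPE the clusters led by pigment genes (1156 PBS and 353 NaIO3 cells) had the same 8 genes higher and 2 lower in NaIO3 as the other RPE clusters. Their median log2 ratio was 0.82, against 0.11 for all genes, and that of the other clusters was 1.01, against 0.18. The same 5 genes were at least 2-fold higher in both, where 8.06% and 11.9% of all genes were, and none was 2-fold lower, which 2.62% and 2.79% of genes were. Mertk had a ratio of 0.632 (0.515 to 0.769) in pigment-led and 0.717 (0.658 to 0.781) in other clusters, intervals that overlap. Itgav had a ratio of 0.824 (0.779 to 0.871) in pigment-led clusters and 0.947 (0.924 to 0.970) in the others, and Itgb5 1.31 (1.16 to 1.48) and 1.84 (1.72 to 1.96), intervals that do not overlap. Gas6 was higher in pigment-led than in other NaIO3 cells, with 176 CPM in cluster 5 and 117 CPM in cluster 2. Mertk and Itgav were lower there, with 28.3 and 372 CPM in cluster 5 and 38.4 and 541 CPM in cluster 2. The PBS clusters differed in the same directions. Gas6, Mertk and Itgav were at 63.8, 44.8 and 452 CPM in the pigment-led cluster 3 and at 50.5, 53.1 and 569.5 CPM in cluster 1. In the small clusters 16 and 26, led by interferon genes (113 NaIO3 cells), Mertk was at 34.5 and 40.6 CPM and Tyro3 at 60.0 and 49.4 CPM.

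**Figure D4:**
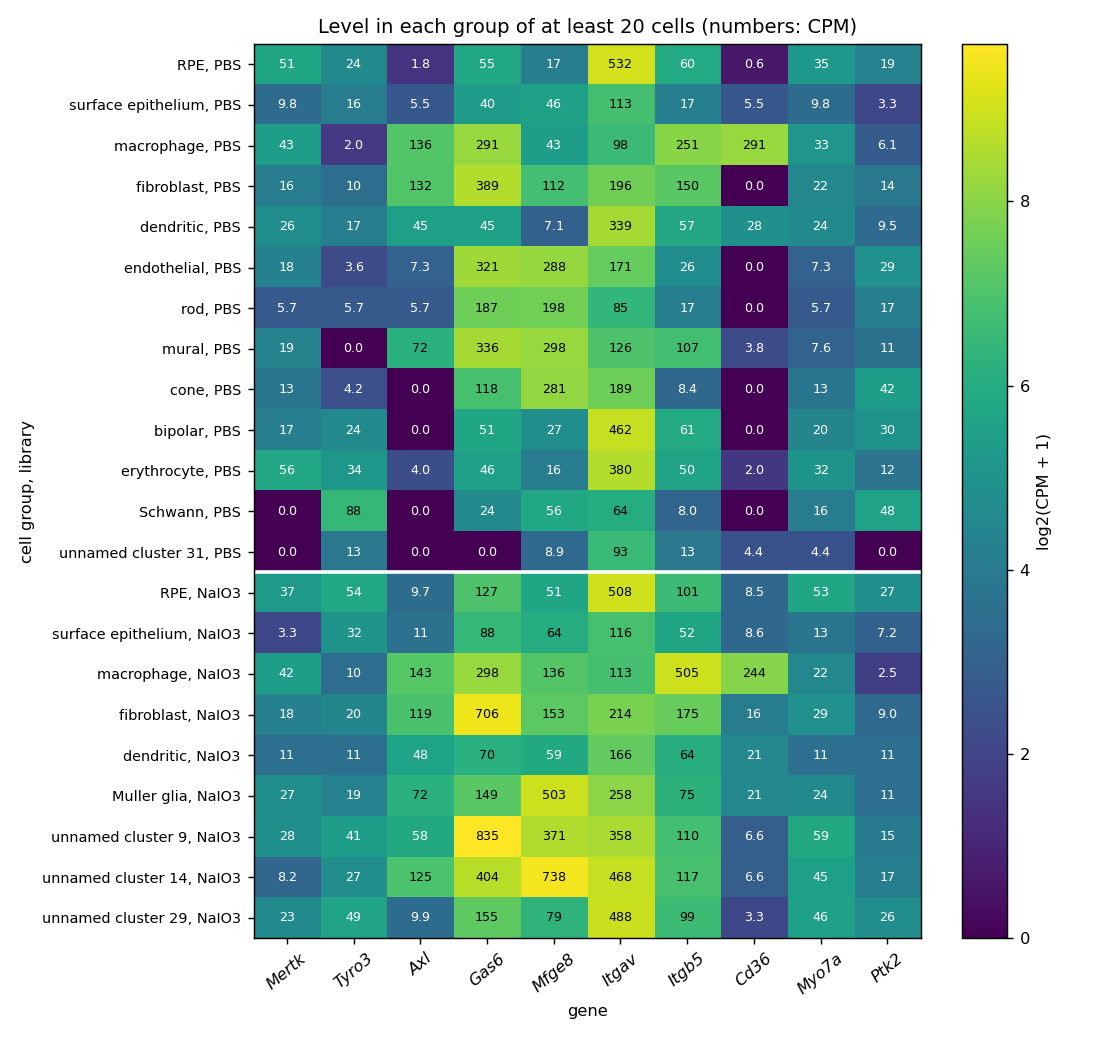
CPM of the 10 genes in each group of at least 20 cells, 13 in the PBS library (top) and 9 in the NaIO3 library (bottom), coloured by log2(CPM + 1). Cd36 is high in macrophage-like cells alone, Itgav in RPE-like cells and in several other groups, among them unnamed clusters 29 and 14, and Gas6 in fibroblast-like cells and unnamed cluster 9.

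Across all 22 groups some small ones carried much RPE RNA. The summed RPE markers were at 77.5% of the RPE level in erythrocyte-like, 70.7% in bipolar-like and 64.1% in dendritic-like PBS cells, and at 97.8% in the unnamed NaIO3 cluster 29. The Mertk level of 55.7 CPM in erythrocyte-like cells, from 28 UMIs, the highest in PBS, stands beside that share and overlapped the RPE level. Fibroblast-like cells carried 31.1% and 31.9%.

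**Figure D5:**
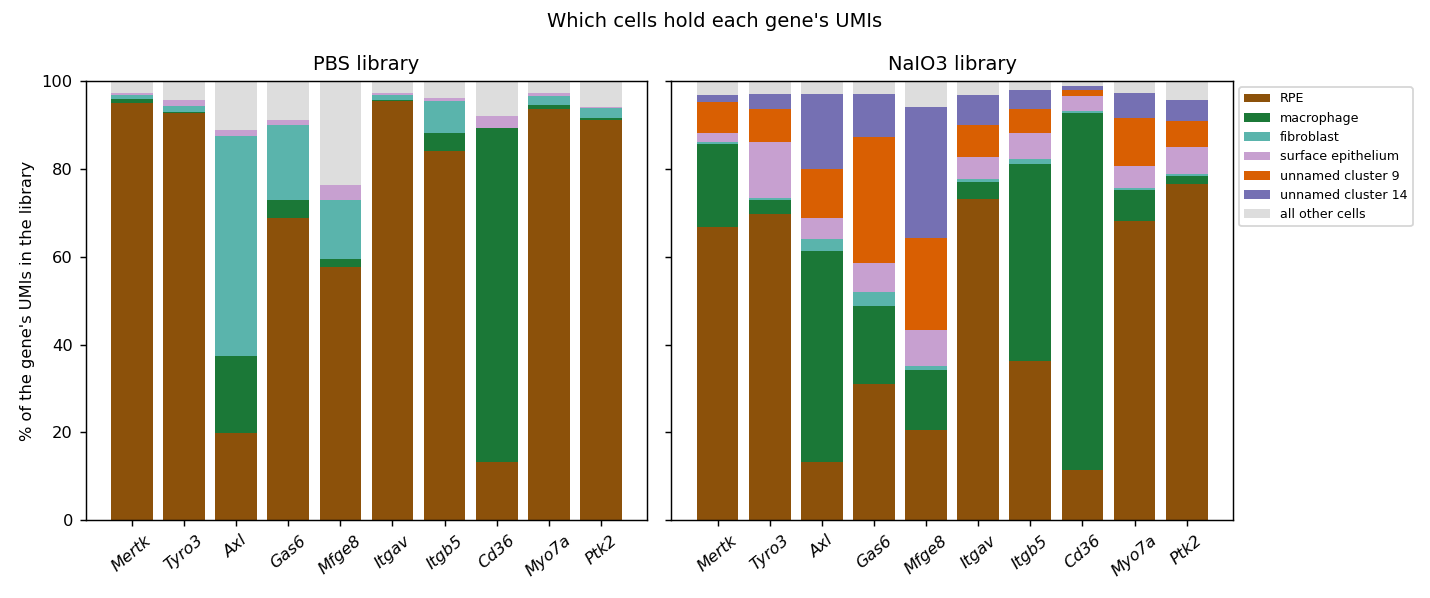
Share of each gene's UMIs held by cell groups, as stacked percentages of the gene's UMIs in the PBS (left) and NaIO3 (right) library. RPE-like cells hold 94.9% of Mertk UMIs in PBS and 66.7% in NaIO3, and macrophage-like cells hold 76.1% and 81.3% of Cd36 UMIs.

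The genes with the most similar pattern over these 22 groups were found by Pearson's r of log2(CPM + 5). As a description, with all groups of a library sharing its free RNA, Cd36 was most like Adgre1 (r = 0.975), Cd84 (0.973) and Slc11a1 (0.967). Itgav was most like Fads3 (0.952) and Azin2 (0.944). Axl was most like Lgals1 (0.935), Emp3 (0.920) and Rap2b (0.888), and Itgb5 like Dpp7 (0.909), Acads (0.896) and Rcbtb2 (0.884). Mertk had no such close partner, with Cyp4v3 at 0.818, Timm10 at 0.816 and Svbp at 0.813. The first partners of the others were Cadm4 for Tyro3 (0.837), Spns1 for Gas6 (0.859), Tead2 for Mfge8 (0.849), Snn for Myo7a (0.888) and Rnf14 for Ptk2 (0.902).

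The other genes of the uptake pathway were followed in RPE-like cells in 6 lists by role. Of 10 other bridging ligands and eat-me signals 7 were at least 2-fold higher in NaIO3 and 1 lower, against 11.6% and 2.68% of all genes. But 8 of the 10 were under the 10% cut for free RNA in at least 1 library, among them the lower one and all but Calr and Thbs1 of the higher ones. Being under this cut does not by itself place a gene at the level of free RNA. Anxa5, under it, was at 57.3 CPM in PBS RPE-like cells and 591 CPM in PBS macrophage-like cells. Macrophage markers stood at a median of 0.190% of their macrophage level in the same RPE-like cells. Those above the cut were Calr, a chaperone that also marks dying cells, at 196 CPM in PBS and 396 CPM in NaIO3 (ratio 2.02), and Thbs1, a matrix protein that binds Cd36, at 416.5 and 833 CPM (2.00). Of 19 other uptake receptors 15 were measured, of which 5 were at least 2-fold higher and none lower. All 5 were under the cut in at least 1 library, among them Sirpa, at 25.3 CPM (PBS) and 52.1 CPM (NaIO3) in RPE-like cells. In macrophage-like cells Sirpa was at 285 and 262.5 CPM. The median log2 ratio was 0.48 for the 15 and 0.18 for the 7 above the free RNA level, among them Scarb2, a lysosomal membrane protein (26.9 and 50.7 CPM), Cd47, the signal that restrains phagocytes (55.4 and 71.3 CPM), and Scarb1, the receptor of high-density lipoprotein (54.3 and 46.9 CPM).

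Of 22 signalling and actin genes 3 were at least 2-fold higher, near the 11.6% of all genes, and none lower, with a median of 0.32. These 3 were under the cut for free RNA in at least 1 library. Msn, which links actin to the membrane, was at 46.6 CPM in PBS and 79.7 CPM in NaIO3, and Dnm2, a dynamin, at 18.1 and 31.8 CPM. Dock1, which activates Rac, was at 27.6 and 21.0 CPM, and Rock1, a kinase of actomyosin, at 38.5 and 31.3 CPM. None of 9 motor and transport genes measured reached 2-fold in either direction (median 0.17), among them Dync1h1, the dynein heavy chain (53.6 and 98.6 CPM), Klc1, a kinesin light chain (35.5 and 52.3 CPM), and Myo10, an actin motor (53.4 and 45.7 CPM). Ush1c, a scaffold that binds Myo7a, had a ratio of 0.617.

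Of 20 phagosome maturation genes 1, the lysosomal channel Tpcn2 (1.76 and 4.11 CPM), was at least 2-fold higher and none lower, against 11.6% and 2.68% of all genes, with a median of 0.18, close to the 0.17 of all genes. Vps11, a tethering subunit, was at 18.7 and 26.8 CPM. Map1lc3a, which coats phagosomes, was at 774 and 520 CPM, and Atg5, which is needed for that coat, at 18.4 and 13.7 CPM. Of 5 receptor shedding genes 1, Rhbdf2, was at least 2-fold higher (2.26 and 7.24 CPM), against 11.6% of all genes, with a median of 0.26. Adam17, a protease that sheds Mertk and whose maturation Rhbdf2 supports, was at 10.0 CPM in PBS and 15.6 CPM in NaIO3 (ratio 1.55), and Adam10 was at 55.4 and 55.5 CPM. In macrophage-like cells the medians of the 6 lists ran from -0.24 for other receptors to 0.44 for receptor shedding.

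In the GENCODE M21 annotation (GRCm38) the 10 genes are protein coding. Mertk (ENSMUSG00000014361) spans 128698956 to 128802894 on the plus strand of chromosome 2, and Tyro3 (ENSMUSG00000027298) spans 119797733 to 119818104 and Itgav (ENSMUSG00000027087) 83724397 to 83806916 on the same chromosome and strand. On chromosome 7, on the minus strand, Axl (ENSMUSG00000002602) spans 25757273 to 25788705, Mfge8 (ENSMUSG00000030605) 79133768 to 79149060 and Myo7a (ENSMUSG00000030761) 98051060 to 98119524. Gas6 (ENSMUSG00000031451) spans 13465374 to 13494490 on the minus strand of chromosome 8, Itgb5 (ENSMUSG00000022817) 33829665 to 33949338 on the plus strand of chromosome 16, and Cd36 (ENSMUSG00000002944) 17781690 to 17888801 on the minus strand of chromosome 5. Ptk2 (ENSMUSG00000022607) spans 73205102 to 73423280 on the minus strand of chromosome 15.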

How the data were processed

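Cells of 1 PBS and 1 NaIO3 library were compared. The matrices hold unnormalised UMI counts for each gene in each barcode, made by the authors with Cell Ranger 3.0.2 and the mm10 build per the submitters' processing notes; its annotation, strand setting and cell calling are not stated. Kept barcodes had 500 or more genes and a mitochondrial share of no more than 25%, and doublets were removed by Scrublet rank (scanpy 1.11.5) at 0.8% per 1000 barcodes, since its automatic threshold marked 0 and 3 barcodes. This left 4233 PBS and 3820 NaIO3 cells. Both libraries were clustered together without integration (2000 variable genes without the 10 described, 30 components, 15 neighbours, Leiden resolution 1 with leidenalg 0.10.2). A cluster was named, with "-like", when markers of 1 of 26 classes had a mean log2 fold of at least 1 over the median cluster (5 CPM added), with at least 3 markers and 50% of those detected at 2-fold.

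Counts were summed per group of cells, 42075264 in PBS and 25568698 in NaIO3 RPE-like cells and 490682 and 6321152 in macrophage-like cells. Genes with at least 20 counts over both groups entered the comparisons. A gene under 10% of its level in another group of the library, in either library, was taken to be at the free RNA level. This cut uses the level alone, and a gene under it can still be above free RNA. Free RNA was also estimated from the markers of cell types foreign to a group and subtracted as an alternative. Levels after subtraction are in CPM of the measured totals, whereas ratios and medians after it are on a shifted scale. Shares of cells carry exact Clopper-Pearson intervals in the tables and were also taken after thinning to 4000 UMIs, which left out 40 PBS macrophage-like and 117 PBS RPE-like cells. Only the ratio intervals and the TMM scaling were tested on simulated counts, which were Poisson draws. Clustering, naming, doublet removal, thinning and free RNA subtraction were not tested in this way. With 1 library a group, no test, standard error or p-value is given.

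The 10 genes, the 6 pathway lists, the markers and the comparisons were chosen with earlier results of these data known. The rule for other named genes took, per list, the 2 highest and 2 lowest ratios in RPE-like cells (by the interval bound nearest to 1) with at least 100 counts in 1 library and not at the free RNA level, and for each of the 10 genes the 3 most similar genes with at least 200 counts, not all of which are reported here. Promoter windows are from RefSeq, which matched 9 of the 10 genes; Ptk2 was not matched. Alternatives covered scaling, filters, doublets, clustering, free RNA, weighting of cells and the choice of clusters.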

Additional observations from a re-analysis of the deposited data

How the results depend on the processing

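The median log2 ratio of the 10 genes in RPE-like cells, 0.96, was above 0 in all 15 alternatives run. It was 0.78 with TMM scaling, 0.70 with a mitochondrial limit of 10% (638 NaIO3 RPE-like cells), 1.06 as a mean over cells and 1.11 with cells thinned to 4000 UMIs. Without the 3 genes under the 10% cut for free RNA, Mfge8 among them, it was 0.60, an alternative added after the data were seen. In each of the other 10 it moved by less than its counting error. In macrophage-like cells the median of 0.05 ran from -0.04 to 0.595 over 15 alternatives, the highest with free RNA subtracted and 0.09 with rod markers left out of that estimate. No single gene's ratio with an interval that leaves out 1 changed direction in RPE-like or macrophage-like cells: in the RPE Mertk ran from -0.65 to -0.39, Itgav from -0.25 to -0.01, Tyro3 from 0.93 to 1.26, Gas6 from 0.96 to 1.26, Mfge8 from 1.25 to 1.67, Myo7a from 0.31 to 0.75 and Ptk2 from 0.26 to 0.70. Itgb5 ran from 0.48 to 0.98, with 0.48 at the mitochondrial limit of 10%. In macrophage-like cells Itgb5 ran from 0.18, in cluster 13 alone, to 1.61. Some macrophage ratios whose interval included 1 depended on the clusters joined. With macrophage, microglia, monocyte and dendritic clusters together, the log2 ratio went from 0.03 to 0.72 for Gas6 and from 0.06 to 0.57 for Axl. It went from -0.26 to 0.485 for Cd36 and from 0.21 to -0.87 for Itgav. For Mertk, Tyro3, Myo7a and Ptk2 it moved by less than counting error. With free RNA subtracted, Axl and Cd36 in the RPE and Tyro3, Itgav and Ptk2 in macrophages were left at 0 in PBS and had no ratio. Without them the medians were 0.65 over 8 genes in the RPE and 0.22 over 7 genes in macrophages. The number of genes higher in macrophages than in the RPE was 4 to 5 in PBS and 4 to 6 in NaIO3 over 17 alternatives. No paired analysis was possible because each group has 1 library. Depth limits the macrophage comparison: the PBS cells gave 490682 UMIs, and 1 to 21 UMIs for 5 of the 10 genes.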
